A study of Mus musculus with 8 samples.

Results

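Il7r, Crlf2 and Il2rg, 3 of the 32285 genes counted, were followed through the macrophages, monocytes, dendritic cells, T cells and NK cells of E0771 mammary tumors. The 3 genes were taken by name and had been selected on measured values of these data. These were their counts per mouse and shares of positive cells in macrophages, monocytes, T cells and NK cells across the tumor lines. Their levels over macrophages, monocytes, T cells and NK cells are therefore given as a description, without a p-value. Tests were kept for divisions of the cells that the choice had not used, namely mature against other dendritic cells, subsets of T cells, and macrophages split by MHC class II.

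Il7r encodes the IL-7 receptor α chain, which pairs with the common γ chain, encoded by Il2rg, to bind IL-7, the survival cytokine of naive and memory lymphocytes. The same α chain pairs with the product of Crlf2 to form the receptor for TSLP, an epithelial cytokine that acts on dendritic cells and other leukocytes. The receptors signal through JAK kinases and STAT5, and Il2rg also serves the receptors for IL-2, IL-4, IL-9, IL-15 and IL-21. In mice, Il7r is best known in lymphocytes and their progenitors, and most resting macrophages carry little of it.

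The study compared CD45+ cells (leukocytes) from orthotopic tumors of 3 lines, collected on day 18 after implantation into the mammary fat pad of female C57BL/6 mice. Parental E0771 comes from a mouse mammary carcinoma. The lines E0771-Res1 and E0771-Res2 were grown from tumors that relapsed after paclitaxel plus anti-PD-1. Parental tumors came from 2 mice (replicates 1 and 3; the other of the 3 was not analysed here), and each resistant line from 3 mice. All groups shared the host, the site and the day, the mice are labelled as separate animals, their ages were not given in the sources used here, and no agent was given in the labels of these samples.

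Cells of each mouse carried an oligonucleotide tag, were pooled, and were counted by droplet single-cell RNA-seq of the 3′ ends of transcripts, in unique molecular identifiers (UMIs, counted molecules). The files held 11430 cells, with 1871 from parental, 3900 from E0771-Res1 and 5659 from E0771-Res2 tumors, and no cell barcode was shared between mice. Cells with 500 to 6000 genes and under 10% mitochondrial counts were kept, which left 10605 cells, with median depths of 5589 to 8160 UMIs per mouse. The median was lowest in replicates 2 and 3 of E0771-Res2. Classes were set by UMI thresholds on a few defining genes, and 2951 cells met none of them.

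Macrophages were cells with at least 10 UMIs of the complement gene C1qa, and those with at least 2 UMIs of Gpnmb, a lysosomal glycoprotein of lipid-laden macrophages, are called Gpnmb+ macrophages (644 cells, 19 to 210 per mouse). The remaining 1674 macrophages are called other macrophages. Monocytes (3601 cells) had Ly6c2, mature dendritic cells (215) had Ccr7 with Fscn1 or Cacnb3, other dendritic cells (175) had Cd209a, Flt3, Xcr1 or Clec9a, T cells (848) had CD3 genes and NK cells (213) had Ncr1, Klrb1c or Klre1 without CD3. Markers not used as thresholds were checked next. The summed level of 7 macrophage genes was 15843 to 21396 CPM (the usual scaling of UMI counts to an equal total, here per mouse and class) in Gpnmb+ macrophages against 3632 to 5583 CPM in monocytes, and that of 7 T cell genes was 1823 to 2407 CPM in T cells against 49.5 to 120 CPM in Gpnmb+ macrophages. NK cells held the T cell list at 1652 to 2702 CPM, so that list did not separate them from T cells. Gpnmb+ macrophages were 37.4% to 44.0% of the macrophages in E0771-Res2 mice, and 11.9% to 19.8% in the other mice. Levels are given both in CPM and as the share of cells with at least 1 UMI.

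Il7r (ENSMUSG00000003882) lies on the minus strand of chr15:9505788-9530176 (GRCm38), Crlf2 (ENSMUSG00000033467) on the minus strand of chr5:109554709-109558993, and Il2rg (ENSMUSG00000031304) on the minus strand of chrX:101264378-101268255. All are protein coding, with up to 8 exons in a transcript. A predicted gene model on the same strand spans Il2rg, so reads that fit both could have been divided or dropped in counting. The 250 bases before each RefSeq start (GRCm38.p6) are shown because the 3 genes, whose products join in 2 receptors, followed different patterns over the same cells. They are written 5′ to 3′ on the gene's strand, at chr15:9529877-9530126, chr5:109558994-109559243 and chrX:101268256-101268505. Capitals mark GGAA, the core bound by ETS factors, and TGTGGT, the core bound by RUNX factors, on either strand, so that TTCC and ACCACA are the opposite strand.
Il7r: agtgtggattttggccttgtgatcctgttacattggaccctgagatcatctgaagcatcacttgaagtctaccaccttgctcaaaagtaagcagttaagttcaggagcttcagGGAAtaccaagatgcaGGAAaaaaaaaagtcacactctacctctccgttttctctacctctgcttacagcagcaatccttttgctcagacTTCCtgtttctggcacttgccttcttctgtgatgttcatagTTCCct
Crlf2: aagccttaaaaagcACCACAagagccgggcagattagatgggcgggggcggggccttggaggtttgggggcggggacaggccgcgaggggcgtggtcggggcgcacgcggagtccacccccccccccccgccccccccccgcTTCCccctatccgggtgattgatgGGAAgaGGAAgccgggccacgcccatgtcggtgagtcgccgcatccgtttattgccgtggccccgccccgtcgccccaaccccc
Il2rg: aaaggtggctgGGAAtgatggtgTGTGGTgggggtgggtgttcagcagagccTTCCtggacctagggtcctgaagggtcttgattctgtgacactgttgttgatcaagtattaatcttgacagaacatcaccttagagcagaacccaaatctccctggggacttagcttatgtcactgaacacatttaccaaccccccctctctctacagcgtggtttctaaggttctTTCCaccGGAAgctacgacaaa
GGAA occurred 4 times before Il7r, 3 times before Crlf2 and 4 times before Il2rg, and 93.45% of the 32851 promoters of this length held it. TGTGGT occurred once before Crlf2, 230 bases from the start, and once before Il2rg, 221 bases from it, with none before Il7r, and 14.05% of promoters held it. The FOXO core TGTTTAC and the E-box CACGTG, held by 3.166% and 6.021% of promoters, were in none of the 3 windows. The windows differed in GC content, at 44% for Il7r, 71.6% for Crlf2 and 49.2% for Il2rg against a median of 52.4% over all promoters. The upstream end of the Il7r window overlaps an exon of a noncoding Il7r transcript that starts farther upstream.

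Among the 7 classes, Il7r, the chain shared by the IL-7 and TSLP receptors, was on average highest in Gpnmb+ macrophages. There it was 387 and 397 CPM in the parental mice, 266, 238 and 214 CPM in the E0771-Res1 mice, and 419, 542 and 368 CPM in the E0771-Res2 mice. CPM here is relative to the UMIs of the class in that mouse, without mitochondrial, ribosomal protein and predicted Gm genes. In T cells, the class where Il7r is best known, it was 157 and 127 CPM in parental, 160, 199 and 123 CPM in E0771-Res1, and 174, 185 and 254 CPM in E0771-Res2 tumors. Every mouse had more Il7r in its Gpnmb+ macrophages than in its T cells, with a median ratio of 2.07 (range 1.20 to 3.13). The share of all genes with the same sign in every mouse was not computed for this pair of classes.

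Other macrophages held far less. Their Il7r was 83.5 and 56.8 CPM in parental, 53.6, 98.5 and 90.9 CPM in E0771-Res1, and 103, 116 and 102 CPM in E0771-Res2 mice. The Gpnmb+ macrophages of each of the 8 mice were above the other macrophages of the same mouse, by a median of 4.34-fold (range 2.36 to 6.99), and 7.67% of the 8265 genes compared had the same sign in every mouse. Over the 8 mice edgeR gave a log2 difference of 2.06 (SE 0.11). An SE beside an edgeR log2 difference is the size of that difference divided by the square root of the fit's F statistic. For the levels on which the genes were chosen, the SE is part of the description and is not a test. Gpnmb+ macrophages stood a median of 3.14-fold above monocytes (range 1.89 to 5.41), again in 8 of 8 mice. For this pair the share of all genes with the same sign in every mouse was not computed. Between other macrophages and monocytes that share was 35.1%.

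The class means of Il7r, in order, were 354 ± 109 CPM (SD, n = 8 mice) in Gpnmb+ macrophages, 300 ± 69.1 (n = 7) in mature dendritic cells, 172 ± 42.0 (n = 8) in T cells, 117 ± 56.1 (n = 8) in monocytes, 88.0 ± 22.4 (n = 8) in other macrophages, 76.2 ± 91.3 (n = 8) in NK cells and 62.7 ± 77.3 (n = 7) in other dendritic cells. Sums of under 10 cells were left out of these means. The 2 highest classes did not differ beyond their spread, with Gpnmb+ macrophages higher in 5 of 7 mice and a mean difference of 48.0 ± 140 CPM (SD). Mature dendritic cells were above T cells in 6 of 7 mice (difference 121 ± 91.7 CPM) and T cells above monocytes in 7 of 8 (55.2 ± 47.2 CPM). Below these, the neighbours overlapped: monocytes exceeded other macrophages in 5 of 8 mice, other macrophages exceeded NK cells in 6 of 8, and NK cells exceeded other dendritic cells in 4 of 7.

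**Figure D1:**
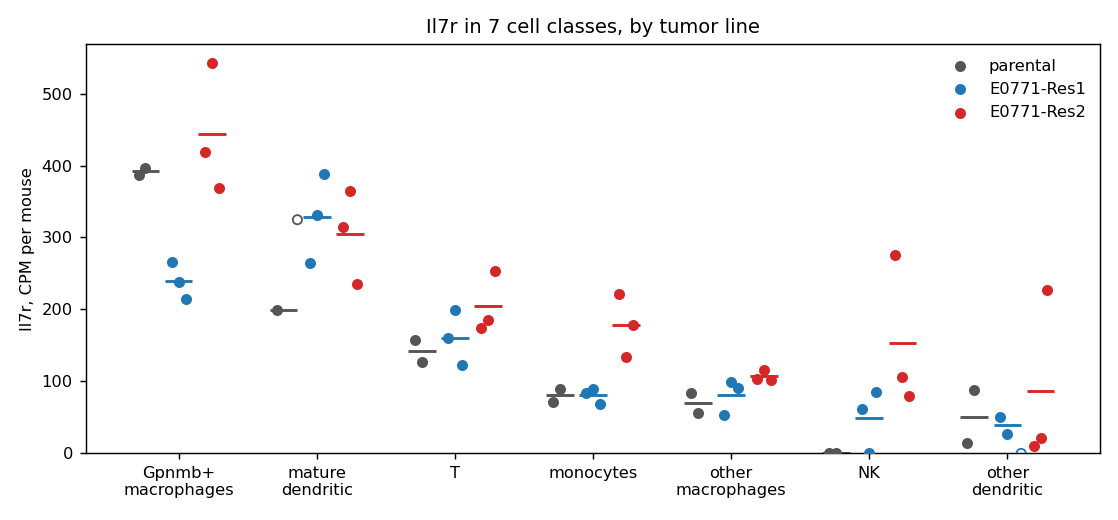
Il7r in CPM (y axis) by cell class (x axis) and tumor line. Dots are mice, horizontal bars are line means and open circles are sums of under 10 cells, which are not in the means. Gpnmb+ macrophages, at 214 to 542 CPM, and mature dendritic cells stand highest, and NK cells of the parental mice are at 0.

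The level in Gpnmb+ macrophages was carried by most of their cells. Il7r had a UMI in 422 of 644 Gpnmb+ macrophages, and in 53.6% to 74.5% of them per mouse (mean 62.7%), against a mean of 67.6% of mature dendritic cells, 41.6% of T cells, 28.4% of other macrophages and 23.7% of monocytes. In other dendritic cells, which lack the CCR7 program and had a like median depth (9919 against 9110.5 UMIs), the mean share was 12.6%. After every cell was thinned to 2500 UMIs the shares were 39.2%, 39.5%, 23.5%, 13.3%, 13.9% and 5.40% in the same order. At equal depth Gpnmb+ macrophages and mature dendritic cells were thus nearly level and above T cells, while other macrophages and monocytes changed places. Thinning left out the shallower cells, which were 1 Gpnmb+ macrophage, 7 of 215 mature dendritic cells, 57 of 848 T cells, 13 of 1674 other macrophages, 121 of 3601 monocytes and 0 of 175 other dendritic cells. The top 1% of cells held 8.39% of the Il7r UMIs of Gpnmb+ macrophages, against 49.2% in other dendritic cells, where 1 cell of E0771-Res2 replicate 3 held 20 of that class's 65 UMIs. In the other 7 mice other dendritic cells ranged from 0 (9 cells) to 88.4 CPM.

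Markers of other Il7r-bearing cells were read in Gpnmb+ macrophages, where the summed T cell list was at 49.5 to 120 CPM against 214 to 542 CPM of Il7r. The 4 markers of mature dendritic cells, none of which was at 0, summed to 54.4 to 235 CPM there and to 1608 to 2806 CPM in mature dendritic cells. Markers of type 2 innate lymphoid cells, which carry Il7r, summed to 0 to 33.0 CPM in Gpnmb+ macrophages and 326 to 579 CPM in T cells, and the 3 mast cell and basophil markers (Cpa3, Mcpt8 and Gata2) had no UMI in Gpnmb+ macrophages.

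Averaged over the mice with at least 10 such cells, Il7r was higher at each step of the Gpnmb count, the gene that set the class threshold. Among cells with at least 10 C1qa UMIs, Il7r averaged 80.8 ± 20.5 CPM (SD over mice) in cells with 0 Gpnmb UMIs and 122 ± 84.6 in cells with 1, just outside the threshold. Just inside it, at 2 or 3 UMIs, the level was 186 ± 69.2 CPM, then 348 ± 46.3 at 4 to 7 and 518 ± 200 at 8 or more. These macrophage means were over 8, 8, 6, 4 and 6 mice in this order, with no parental mouse at 4 to 7 UMIs. Monocytes showed like steps below the C1qa threshold, from 54.2 ± 6.88 CPM at 0 Gpnmb UMIs through 104 ± 46.5, 187 ± 84.8 and 300 ± 89.6 to 451 ± 131 CPM at 8 or more (8, 8, 8, 5 and 6 mice). Crlf2 and Il2rg did not follow the Gpnmb count to that extent: between the lowest and highest Gpnmb counts Crlf2 went from 212 to 291 CPM in macrophages and from 195 to 294 CPM in monocytes, and Il2rg from 153 to 149 and from 197 to 154 CPM. Within single lines some steps of Il7r went down. In macrophages it fell from 73.3 to 56.5 CPM between 0 and 1 UMIs in parental tumors. In E0771-Res1 macrophages it fell from 159 to 127 CPM between 1 and 2 or 3 UMIs. In parental monocytes it fell from 284 to 241 CPM between 4 to 7 and 8 or more UMIs.

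**Figure D2:**
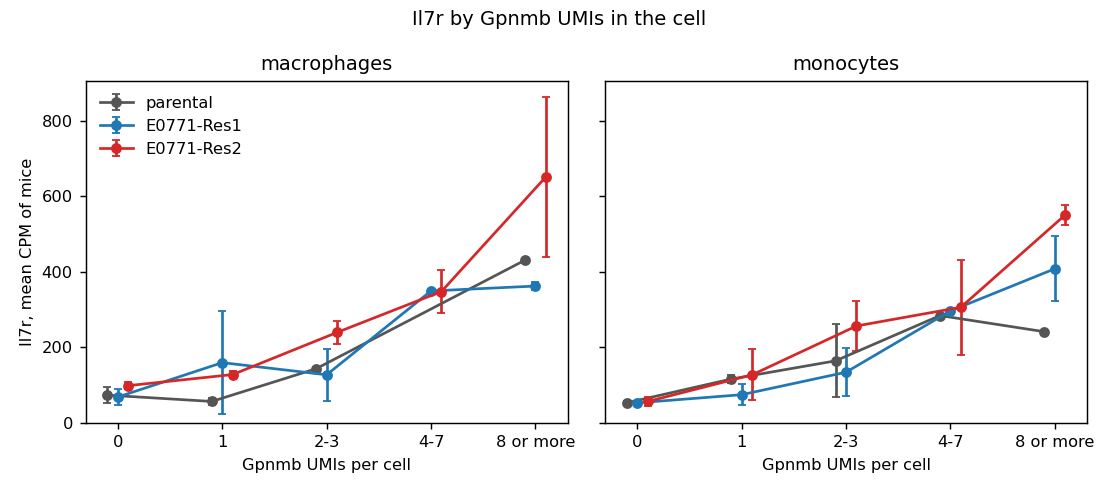
Il7r in CPM (y axis) against the number of Gpnmb UMIs in a cell (x axis), in macrophages and in monocytes. Points are means over the mice of a line with at least 10 cells, and bars are SD where there was more than 1 mouse. The level climbs in both classes between the lowest and highest counts, though not at every step within a line. The monocytes of the 3 lines start together at 52.8 to 56.4 CPM.

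The same held in cells that met no class threshold. Ungated cells with at least 2 Gpnmb UMIs had Il7r at 464 ± 168 CPM (SD, n = 2) in parental, 555 ± 61.0 (n = 3) in E0771-Res1 and 556 ± 23.2 (n = 3) in E0771-Res2 tumors. These were 26, 75 and 678 cells with fewer than 10 C1qa UMIs and median depths of 4126 to 6746 UMIs per mouse. Ungated cells with fewer Gpnmb UMIs averaged 102, 110 and 142 CPM. The means of ungated cells with at least 2 Gpnmb UMIs were above those of Gpnmb+ macrophages in each line (392, 239 and 443 CPM). Among these ungated cells, the E0771-Res1 mice (501 to 621 CPM) and the parental mice (345 and 582 CPM) overlapped.

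Between tumor lines, which were not compared within dendritic cells, the log2 difference of Il7r among monocytes and both macrophage classes was largest in monocytes. Il7r in monocytes was 71.6 and 89.9 CPM in parental, 84.0, 89.3 and 68.7 CPM in E0771-Res1, and 222, 134 and 178 CPM in E0771-Res2 mice. The E0771-Res2 mice lay above all others, while parental and E0771-Res1 overlapped. The edgeR log2 difference was 1.14 (SE 0.18) for E0771-Res2 against parental and 0.02 (SE 0.19) for E0771-Res1 against parental, comparisons that share the 2 parental mice. In monocytes 36.6% of the 9382 genes did not overlap between E0771-Res2 and parental, and 19.9% between E0771-Res2 and E0771-Res1.

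Within monocytes the size of this difference depended on the Gpnmb count of the cells. In monocytes without a Gpnmb UMI, Il7r was 52.9 ± 4.75 CPM (SD, n = 2, 588 cells) in parental, 52.8 ± 2.47 (n = 3, 927 cells) in E0771-Res1 and 56.4 ± 11.7 (n = 3, 917 cells) in E0771-Res2 tumors. The difference between E0771-Res2 and parental was 97.1 CPM over all monocytes and 3.45 CPM over those cells, a restriction chosen after seeing the data. At 2 or 3 Gpnmb UMIs Il7r was 164 ± 97.0 CPM (n = 2) in parental, 134 ± 63.6 (n = 3) in E0771-Res1 and 256 ± 66.8 (n = 3) in E0771-Res2 monocytes. At 8 or more UMIs it was 241 (n = 1), 408 ± 85.6 (n = 2) and 550 ± 26.6 CPM (n = 3). The lines were closer at 1 UMI (116, 74.4 and 127 CPM) and at 4 to 7 UMIs (284, 296 and 306 CPM).

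In Gpnmb+ macrophages the lines were ordered differently. The 3 E0771-Res1 mice (214 to 266 CPM) were below both parental mice (387 and 397 CPM), with a log2 difference of -0.66 (SE 0.20), and 24.2% of 6511 genes had groups that did not overlap. E0771-Res2 and parental overlapped (log2 difference 0.18, SE 0.19), where 35.5% of genes did not. E0771-Res2 lay above E0771-Res1 in every mouse (0.85, SE 0.16), where 13.9% of genes did not overlap. The summed markers of mature dendritic cells were 184 to 235 CPM in the parental, 54.4 to 87.6 CPM in the E0771-Res1 and 80.5 to 98.1 CPM in the E0771-Res2 mice, and their part in these differences was not tested. The parental values rest on 31 and 19 cells, and the difference from E0771-Res1 shrank from -153 CPM to -35.4 CPM when 1 Gpnmb UMI was enough, and to -24.8 CPM when the C1qa minimum was dropped.

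In other macrophages the E0771-Res2 mice (102 to 116 CPM) were above the parental (56.8 and 83.5 CPM) and E0771-Res1 mice (53.6 to 98.5 CPM), by log2 differences of 0.53 (SE 0.23) and 0.50 (SE 0.20). In these comparisons 33.4% and 18% of 8700 genes did not overlap. Parental and E0771-Res1 overlapped, at 0.03 (SE 0.24), where 26.7% of genes did not.

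T cells showed a smaller difference that depended on which cells were taken. The E0771-Res2 mice (174 to 254 CPM) were above the parental mice (127 and 157 CPM), with a log2 difference of 0.55 (SE 0.21), in a comparison where 27.7% of 7900 genes did not overlap. The E0771-Res1 mice (123 to 199 CPM) overlapped both. The summed level of the 7 macrophage genes in T cells, none of which was at 0, was 1894 to 2206 CPM in parental, 1958 to 2284 CPM in E0771-Res1 and 3353 to 4701 CPM in E0771-Res2 mice, and so moved in the same direction. In T cells without a C1qa or Gpnmb UMI, Il7r was 155 ± 25.7 CPM (SD, n = 2, 57 cells) in parental, 192 ± 17.3 (n = 3, 100 cells) in E0771-Res1 and 126 ± 29.5 (n = 3, 83 cells) in E0771-Res2 tumors. The E0771-Res2 difference from parental was then -28.3 CPM, where it had been 62.6 CPM over all T cells.

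**Figure D3:**
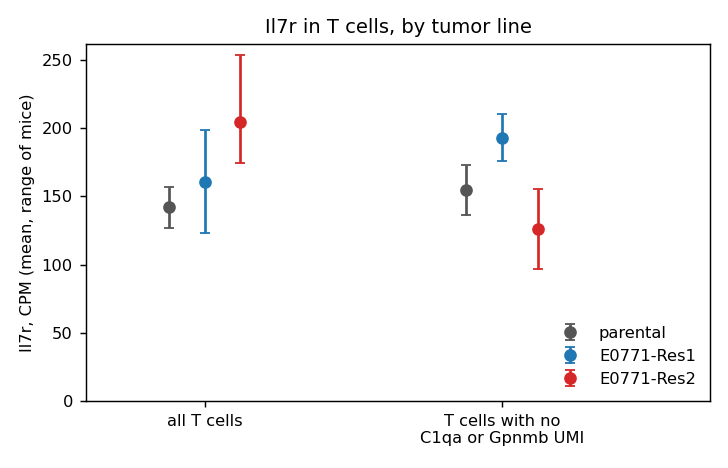
Il7r in CPM (y axis) in the T cells of each tumor line (x axis), over all T cells and over those with no C1qa or Gpnmb UMI. Points are means and bars the range of the mice. E0771-Res2 is the highest line over all T cells (mean 204 CPM) and the lowest over the restricted cells (126 CPM).

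NK cells were few. No Il7r UMI was seen in 39 parental NK cells. With the cells of the 2 mice pooled and taken as independent, this allows a share of up to 7.69% of such cells with a UMI. In E0771-Res1 it was 62.3, 0 and 85.6 CPM, and in E0771-Res2 275, 106 and 80.1 CPM. With parental set to the floor of 3 UMIs over the group (12.7 CPM), the E0771-Res2 mean was 12.1-fold and the E0771-Res1 mean 3.87-fold this floor. The floor pools the cells of 2 mice, whose own floors were 18.4 and 41.6 CPM. It covers counting error only, so these ratios are not lower bounds on a difference between lines. The ratios also rest on single mice. That of E0771-Res2 was 7.31-fold without its replicate 1 and 3.70-fold without parental replicate 1, and that of E0771-Res1 was 2.45-fold without its replicate 3, 5.81-fold without its replicate 2 and 1.19-fold without parental replicate 1. A single cell held 19 of the 128 Il7r UMIs of NK cells. Between E0771-Res2 and parental 24.4% of 3695 genes did not overlap, and between E0771-Res1 and parental, where Il7r touched at 0, it was 19.9%. Macrophage genes summed to 1585 to 2051 CPM in parental, 1020 to 1474 CPM in E0771-Res1 and 1948 to 3859 CPM in E0771-Res2 NK cells. Among NK cells without a C1qa or Gpnmb UMI, the only E0771-Res2 mouse with at least 10 such cells had 9.02 CPM over 16 cells, and 2 E0771-Res1 mice averaged 71.9 CPM over 34 cells.

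Crlf2, the second chain of the TSLP receptor, was nearly level over the classes apart from 1 exception. It was 244 and 234 CPM in the Gpnmb+ macrophages of parental mice, 217, 282 and 247 CPM in E0771-Res1, and 314, 253 and 316 CPM in E0771-Res2, a mean of 263 ± 36.8 CPM (SD, n = 8). The means of other dendritic cells (254 ± 61.4, n = 7), T cells (233 ± 17.5), NK cells (214 ± 31.5), other macrophages (214 ± 21.2) and monocytes (210 ± 21.9, n = 8 each) followed, and no step between neighbours exceeded the spread of the differences between mice. Mature dendritic cells were apart, at 49.5 to 128 CPM, a mean of 90.5 ± 23.6 (n = 7), below the monocytes of the same mouse in 7 of 7 mice by 117 ± 32.3 CPM (SD). How many other genes had the same sign in every mouse between these classes was not computed. The Gpnmb+ macrophages were above other macrophages by a log2 difference of 0.38 (SE 0.07), a smaller step than that of Il7r.

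By tumor line, Crlf2 in Gpnmb+ macrophages differed by 0.32 (SE 0.19) between E0771-Res2 and parental and by 0.05 (SE 0.20) between E0771-Res1 and parental, on the log2 scale. The mice of E0771-Res2 and parental did not overlap, as was the case for 35.5% of genes. In monocytes E0771-Res2 (218 to 248 CPM) was above E0771-Res1 (180 to 192 CPM) without overlap, at 0.26 (SE 0.09), where 19.9% of genes did not overlap, and both parental mice (208 and 222 CPM) were also above E0771-Res1, in a comparison where 26% of genes did not overlap. In T cells the 3 E0771-Res2 and the 3 E0771-Res1 mice were all above the parental mice, by 0.25 (SE 0.15) and 0.20 (SE 0.15), in comparisons where 27.7% and 21% of genes did not overlap. E0771-Res2 and E0771-Res1 overlapped there, where 14.1% of genes did not.

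Il2rg, the common γ chain, was ordered differently from Il7r. It was highest in NK cells (379 ± 43.2 CPM, SD, n = 8) and T cells (343 ± 42.4, n = 8), followed by mature (223 ± 56.6, n = 7) and other dendritic cells (207 ± 52.7, n = 7), monocytes (191 ± 14.3, n = 8), other macrophages (154 ± 15.0, n = 8) and Gpnmb+ macrophages (139 ± 30.5, n = 8). Its level in Gpnmb+ macrophages was 152 and 170 CPM in parental, 172, 79.2 and 152 CPM in E0771-Res1, and 136, 117 and 135 CPM in E0771-Res2 mice. Of the neighbours, monocytes exceeded other macrophages in 8 of 8 mice (by 37.7 ± 21.1 CPM), in a comparison where 35.1% of genes had the same sign in every mouse, whereas the 2 macrophage classes overlapped, with a log2 difference of -0.03 (SE 0.09). NK and T cells overlapped as well (NK higher in 6 of 8 mice).

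**Figure D4:**
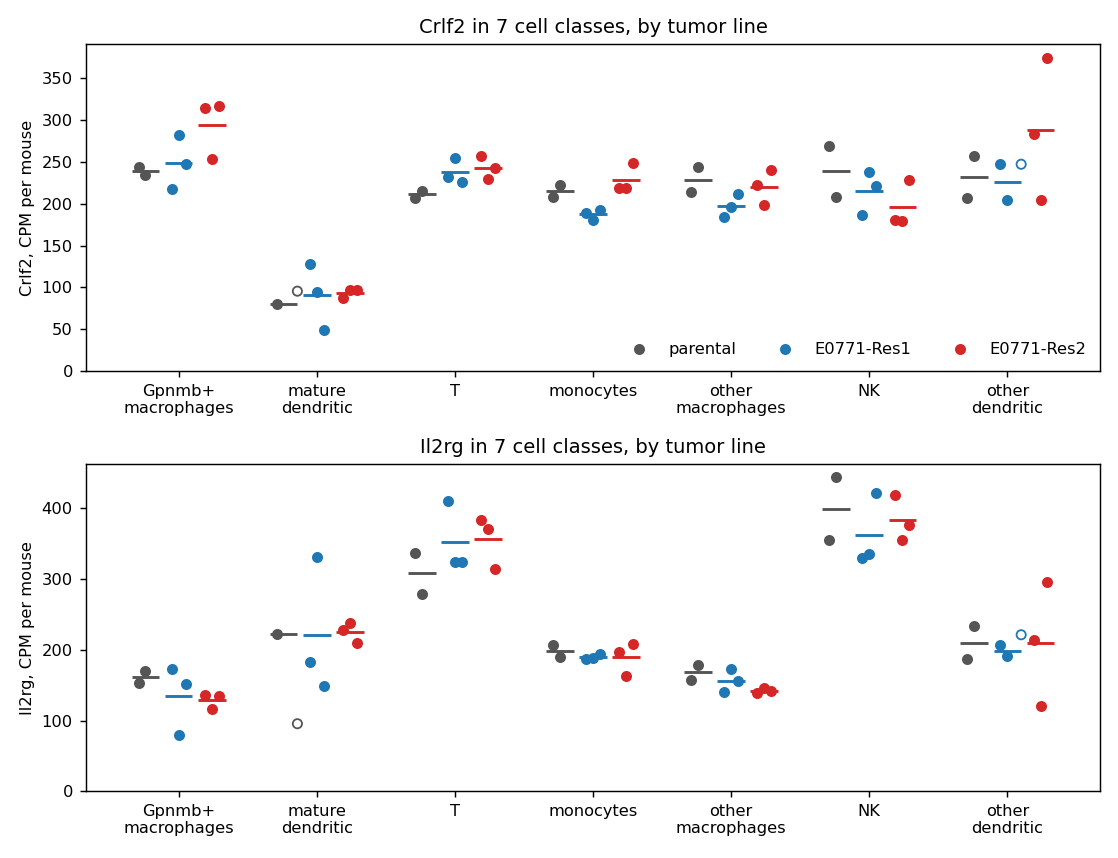
Crlf2 and Il2rg in CPM (y axes) by cell class (x axes) and tumor line. Dots are mice, horizontal bars are line means and open circles are sums of under 10 cells. Crlf2 is lowest in mature dendritic cells (49.5 to 128 CPM), and Il2rg is highest in NK and T cells.

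Il2rg varied little between tumor lines in both macrophage classes, monocytes, T cells and NK cells, the classes compared by line. The log2 differences ran from -0.27 (E0771-Res2 against parental in Gpnmb+ macrophages, SE 0.24) to 0.24 (E0771-Res2 against parental in T cells, SE 0.15). In Gpnmb+ and in other macrophages the E0771-Res2 mice were below the parental mice without overlap, at 117 to 136 against 152 and 170 CPM and at 139 to 146 against 158 and 178 CPM. In these comparisons 35.5% and 33.4% of genes did not overlap. Within Foxp3+ T cells Il2rg averaged 274 ± 101 CPM (SD, n = 2) in parental, 431 ± 45.9 (n = 3) in E0771-Res1 and 429 ± 115 (n = 3) in E0771-Res2 tumors. Lines were not compared by a fit within that subset.

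The chains were then read in the same cells. In Gpnmb+ macrophages a median of 53.6% of cells per mouse (range 43.8% to 61.6%) had UMIs of both Il7r and Crlf2, the pair of the TSLP receptor, against 31.2% of T cells, 22.3% of other macrophages, 21.2% of mature dendritic cells, 17.3% of monocytes and 16.0% of NK cells. The product of the 2 separate shares was 54.9% in Gpnmb+ macrophages, close to the joint share. Both Il7r and Il2rg, the pair of the IL-7 receptor, were seen in 45.8% of mature dendritic cells, 38.9% of Gpnmb+ macrophages and 33.5% of T cells (medians over mice). Of the cells with Il7r, 83.0% of Gpnmb+ macrophages and 75% of T cells also had Crlf2, but 36.8% of mature dendritic cells. These shares are not thinned, and they count cells with a UMI, so a cell without one may still carry the transcript.

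The first test concerned dendritic cells, in which Il7r and Crlf2 moved in opposite directions. Mature dendritic cells, which carry antigen to lymph nodes under CCR7, had 295 ± 74.2 CPM of Il7r (SD, n = 6 mice with at least 10 cells in both classes: 1 parental, 2 E0771-Res1 and 3 E0771-Res2), against 58.4 ± 83.8 CPM in other dendritic cells. Il7r was higher in 6 of 6 mice, with a log2 difference of 2.96 (SE 0.39) and an adjusted p of 7.14e-06 (edgeR's quasi-likelihood test with Benjamini-Hochberg adjustment over 4197 genes). In E0771-Res2 replicate 3 the ratio was only 1.04, through the single cell with 20 UMIs. Crlf2 was lower in 6 of 6 mice, at 89.8 ± 25.8 against 253 ± 67.2 CPM, a log2 difference of -1.16 (SE 0.19, edgeR adjusted p = 5.18e-05).

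Il2rg, at 205 ± 33.4 against 202 ± 56.3 CPM, was higher in mature cells in 3 of 6 mice and missed the threshold (log2 difference 0.32, SE 0.18, edgeR adjusted p = 0.160). The background was high in this comparison, where 50.6% of genes passed the test and 45.7% had the same sign in every mouse.

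Among T cells, regulatory cells marked by at least 1 UMI of Foxp3, their lineage factor, were compared with the remaining T cells (223 against 625 cells, 8 mice). Crlf2 was higher in Foxp3+ cells in 8 of 8 mice, at 279 ± 29.5 against 217 ± 20.8 CPM, a log2 difference of 0.34 (SE 0.11, edgeR adjusted p = 0.0482), where 11.7% of the 6151 genes passed and 7.74% had the same sign in every mouse. The call was close to the threshold and was lost with DESeq2 (0.34, adjusted p = 0.143) and in 7 of the 8 analyses that left out 1 mouse. Il7r was 204 ± 47.9 against 160 ± 48.6 CPM, higher in 7 of 8 mice, and did not pass (0.29, SE 0.15, edgeR adjusted p = 0.244). Il2rg was 391 ± 105 against 326 ± 35.4 CPM and did not pass either (0.23, SE 0.12, edgeR adjusted p = 0.255).

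CD8+ T cells, without Foxp3, were compared with the other Foxp3- T cells in the 7 mice with enough of both (207 against 348 cells). Il7r was 132 ± 70.7 CPM in CD8+ and 188 ± 63.2 CPM in other cells, a log2 difference of -0.79 (SE 0.21, edgeR adjusted p = 0.00644), although it was higher in the CD8+ cells of 2 of 7 mice. Crlf2 was 181 ± 33.8 against 245 ± 38.2 CPM (-0.55, SE 0.16, edgeR adjusted p = 0.0111), lower in 6 of 7 mice. Il2rg, at 337 ± 49.7 against 309 ± 25.3 CPM, gave -0.03 (SE 0.11, edgeR adjusted p = 0.987), and its means and its fitted difference had opposite signs. In this comparison 34.5% of the 5691 genes passed and 26.9% had the same sign in every mouse. The share of cells with an Il7r UMI went the other way, with means of 43.2% in CD8+ and 33.6% in other T cells. The CD8+ cells were deeper (median 10302 against 6664 UMIs), and after thinning the shares were 17.3% and 22.3%.

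Macrophage genes differed between these subsets too, with medians of 2496 CPM in Foxp3+, 1263 CPM in CD8+ and 3062 CPM in other T cells. In the same order, the T cell list had medians of 2516, 2960 and 1409 CPM. Monocyte markers had medians of 1428, 1671 and 4187 CPM. Markers of Gpnmb+ macrophages (Ctsk, Fabp5, Spp1, Lgals3 and Cd63) had medians of 3459, 2608 and 5731 CPM. The part of these genes in the differences was not tested, and the selection that follows did not exclude cells by monocyte markers. Pooled over mice and without C1qa or Gpnmb UMIs, Il7r was 249 CPM in Foxp3+ (85 UMIs, 62 cells), 91.7 CPM in CD8+ (45 UMIs, 72 cells) and 167 CPM in other T cells (87 UMIs, 106 cells). In cells with such a UMI it was 177 (203 UMIs), 136 (168 UMIs) and 196 CPM (385 UMIs). The CD8+ cells had the lowest pooled value in each selection (all cells: 194, 123 and 190 CPM). Foxp3+ cells were highest without such a UMI, close to other T cells over all cells, and below them with such a UMI. These pooled values have no spread over mice. E0771-Res2 replicate 3 held 57 of the 213 Il7r UMIs of CD8+ cells.

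Macrophages of both Gpnmb classes were split in each mouse at the median share of MHC class II genes, the antigen-presenting module (1160 against 1158 cells). Il2rg was higher in the MHC class II high macrophages of 8 of 8 mice, at 162 ± 13.1 against 136 ± 18.5 CPM, a log2 difference of 0.33 (SE 0.07, edgeR adjusted p = 0.00203), where 8.54% of the 8166 genes passed and 5.99% had the same sign in every mouse. Il7r was 157 ± 84.2 against 174 ± 76.2 CPM, higher in 4 of 8 mice, and did not pass (-0.04, SE 0.11, edgeR adjusted p = 0.907). Crlf2 was 235 ± 36.1 against 224 ± 29.8 CPM, higher in 6 of 8 mice, and did not pass (0.15, SE 0.07, edgeR adjusted p = 0.198). The MHC class II high and low macrophages also differed in summed markers. Medians were 17079 against 22149 CPM for macrophage genes, 1009 against 833 CPM for monocyte markers and 105 against 71.3 CPM for mature dendritic cell markers. Their part in the Il2rg difference was not tested. Whether any of these 4 divisions differed between tumor lines was read from an interaction term. In T cells and macrophages no such term passed for the 3 genes (edgeR adjusted p of 0.928 or more). The SE of the Il7r terms in T cells ran from 0.39 to 0.56, so sizable differences between lines could be missed. In dendritic cells, with 1 parental mouse, the Il7r terms against parental were -0.93 for E0771-Res1 and -1.30 for E0771-Res2.

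**Figure D5:**
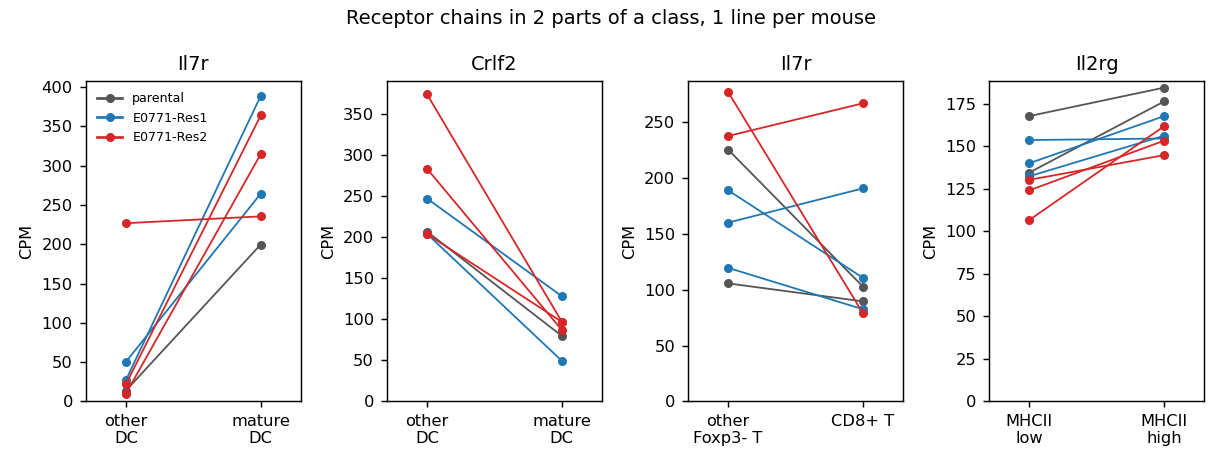
CPM (y axes) on both sides of a tested division of cells (x axes). The panels show Il7r and Crlf2 in dendritic cells, Il7r in CD8+ against other Foxp3- T cells, and Il2rg by MHC class II in macrophages. Each line joins the values of 1 mouse. Il7r is higher and Crlf2 lower in mature dendritic cells in 6 of 6 mice, and Il2rg is higher in MHC class II high macrophages in 8 of 8.

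The partners of the receptors were read from lists of 41 genes: ligands, related receptor chains, JAK kinases, STAT factors, feedback inhibitors, targets and regulators of Il7r. The ligands themselves were nearly absent from these leukocytes. Over the 7 classes there were 9 UMIs of Il7, 25 of Tslp, 57 of Il2, 10 of Il21, 1 of Il4 and 0 of Il9, whereas Il15, a cytokine that uses Il2rg, had 2876. The kinases Jak1 and Jak2, which serve the α chain and CRLF2, had 8840 and 4382 UMIs, Jak3, the partner of the γ chain, had 662, and the transcription factors Stat5a and Stat5b had 1002 and 1672.

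Between Gpnmb+ and other macrophages, 2 of the 30 list genes tested were higher and 5 lower in Gpnmb+ cells, with a median log2 difference of -0.11 (all genes -0.0045), and 10.4% of all genes passed. The survival genes Mcl1 (0.26, SE 0.06, edgeR adjusted p = 0.00448) and Pim1 (0.20, SE 0.06, edgeR adjusted p = 0.0262) rose. The IL-4 receptor chain Il4ra (-0.56, SE 0.11, edgeR adjusted p = 0.00105), the IL-21 receptor Il21r (-0.54, SE 0.17, edgeR adjusted p = 0.0359), the inhibitor Socs3 (-0.40, SE 0.08, edgeR adjusted p = 0.00167) and the factor Runx1 (-0.30, SE 0.09, edgeR adjusted p = 0.0402) fell, as did the chemokine Ccl17. None of the 4 kinases or 5 STAT factors passed. Between other macrophages and monocytes, where 53.1% of all genes passed, 4 of 31 list genes were higher and 18 lower, among them Jak2 (-1.07, SE 0.07, edgeR adjusted p = 1.52e-10), Il15 (-1.35, SE 0.10, edgeR adjusted p = 1.80e-09) and Pim1 (-1.20, SE 0.07, edgeR adjusted p = 2.63e-11).

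Between tumor lines, most calls were in monocytes, the class with the most cells. The classes held 3601 monocytes, 1674 other macrophages, 848 T cells, 644 Gpnmb+ macrophages and 213 NK cells. Counts of calls are therefore not comparable between classes, and a class without calls may still differ between lines. In E0771-Res2 against parental monocytes 1 of 31 list genes rose and 6 fell (4.21% of all genes passed). The factor Klf2 rose by 1.53 (SE 0.26, edgeR adjusted p = 0.00526). The STAT5-induced inhibitor Cish fell by 1.13 (SE 0.21, edgeR adjusted p = 0.00691) and Jak2 by 0.60 (SE 0.13, edgeR adjusted p = 0.0161), and those that fell included the phosphatase gene Ptpn2, Il15 and Socs3. No list gene passed between E0771-Res1 and parental monocytes (0.139% of all genes did, and 7 list genes had an unadjusted p under 0.05). Against E0771-Res1, Klf2 rose in E0771-Res2 monocytes (1.11, SE 0.22, edgeR adjusted p = 0.0133) and Cish, Ptpn2, Socs2 and Socs3 fell (2.66% of all genes passed).

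In Gpnmb+ macrophages, where 23 list genes were tested, the inhibitor Socs1 fell in E0771-Res2 against parental (-2.39, SE 0.36, edgeR adjusted p = 0.0126, with 0.0922% of genes passing), and Socs3 fell against E0771-Res1, from 334 ± 65.3 to 165 ± 9.02 CPM (SD, edgeR adjusted p = 0.00820, with 0.23% passing). The parental side of the Socs1 comparison was 31 and 19 cells. Socs1 was also higher in mature than in other dendritic cells (97.8 ± 33.3 against 27.7 ± 13.1 CPM, SD). Markers of mature dendritic cells were highest in the parental Gpnmb+ macrophages, and their part in the Socs1 difference was not tested. Socs3 also fell in other macrophages of E0771-Res2 against E0771-Res1 (-0.51, SE 0.12, edgeR adjusted p = 0.0479, with 1.37% passing). No list gene passed in other macrophages against parental, where 0.954% (E0771-Res2) and 0.322% (E0771-Res1) of all genes did and 13 and 6 list genes had an unadjusted p under 0.05. In T cells 0 of 32 and in NK cells 0 of 20 list genes passed edgeR's test between any lines. Over all genes, 0.038%, 0.684% and 0.582% passed in T cells (E0771-Res1 and E0771-Res2 against parental, and E0771-Res2 against E0771-Res1), and 0%, 0% and 0.189% in NK cells. At an unadjusted p under 0.05 there were 14 in T cells and 1 in NK cells, and DESeq2 called 0 in both.

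The lists were also read in the tested divisions. In mature against other dendritic cells 14 of 25 rose and 4 fell, where 50.6% of all genes passed (median log2 difference 1.10, all genes 0.02), led by the chemokine Ccl22 (5.83, SE 0.29, edgeR adjusted p = 8.39e-11), Socs2 (5.68, SE 0.30, edgeR adjusted p = 1.48e-10), the IL-2 receptor α chain Il2ra (5.45, SE 0.34, edgeR adjusted p = 8.50e-10) and the factor Tcf7 (5.24, SE 0.47, edgeR adjusted p = 6.55e-08), while the survival gene Bcl2 fell (-1.82, SE 0.49, edgeR adjusted p = 0.00479). In Foxp3+ against other T cells, where 11.7% of all genes passed, 6 of 30 rose, among them Il2ra (2.51, SE 0.15, edgeR adjusted p = 2.19e-10), and 3 fell, Tcf7 (-2.11, SE 0.34, edgeR adjusted p = 0.000237), Bcl2 (-1.82, SE 0.26, edgeR adjusted p = 5.37e-05) and Klf2. In CD8+ against other cells, where 34.5% passed, 5 of 28 rose, among them the IL-2 receptor β chain Il2rb (1.01, SE 0.12, edgeR adjusted p = 1.10e-05), and 10 fell, among them Runx1 (-1.57, SE 0.22, edgeR adjusted p = 2.98e-05). In MHC class II high against low macrophages, where 8.54% passed, 9 of 30 rose and 3 fell, and 6 of the 7 target genes were among those that rose, including Ccl24 (2.86, SE 0.40, edgeR adjusted p = 1.97e-05) and Ccl22 (2.57, SE 0.57, edgeR adjusted p = 0.00408). Both varied widely over mice, Ccl24 at 38.4 ± 62.5 against 4.59 ± 6.89 CPM (SD) and Ccl22 at 22.2 ± 38.2 against 4.41 ± 4.85 CPM. Neither had the same sign in every mouse, where 5.99% of genes did.

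Genes most like each member were ranked by Pearson's r of log2(CPM + 1) over the 54 sums of a mouse and a class with at least 10 cells (7635 genes). These sums share mice and libraries and are not independent, so r is a description. For Il7r they were the linker histone H1f0 (0.79), the fatty acid-binding protein Fabp5 (0.79), the zinc finger gene Zfp217 (0.79), the actin-binding Lima1 (0.77) and the sorting protein Pacs2 (0.75), while Gpnmb itself stood at 0.49. Over the 38 myeloid sums they were Fabp5 (0.89), the small GTPase Rap2b (0.80), the tetraspanin Cd63 (0.80), the lysosomal membrane protein Lamp1 (0.77) and Sh3glb1 (0.77). Its own partner chains were not like it, with r of -0.21 for Crlf2 and -0.27 for Il2rg over all 54 sums.

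Crlf2 was most like Laptm5 (0.89), Lamtor4 (0.87), Cd53 (0.84), Fermt3 (0.84) and Ly6e (0.84) over all classes, and Wfdc17 (0.92), Laptm5 (0.91), Cd300a (0.91), Bid (0.89) and Lamtor4 (0.88) over myeloid classes, where Ccr7, the chemokine receptor that defined mature dendritic cells, stood at -0.84. Il2rg was most like Dock2 (0.86), Luc7l2 (0.86), Fam107b (0.86), Cst7 (0.86) and Foxo1 (0.84) over all classes, and less closely like Mfsd6 (0.75), Mvb12a (0.75), Cbfa2t3 (0.74), Fbrsl1 (0.73) and Fdft1 (0.72) over myeloid classes.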

How the data were processed

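CD45+ cells of 8 E0771 tumors were measured by 10x 3′ single-cell RNA-seq. The authors deposited filtered UMI counts per mouse, not normalized; the file headers name Cell Ranger 6.1.2, and the submitters' notes name Seurat and mm10. The genes and lists were chosen with earlier results of these data known. Cell classes were gated on raw UMIs as given in the report, with at least 2 UMIs of the defining genes where no other minimum is given (1 for Fscn1 or Cacnb3; monocytes also needed Csf1r, Ccr2, Fn1 or Vcan); no doublet caller was run, and 284 cells with macrophage and lymphocyte genes together were left out. Counts were summed per mouse and class (at least 10 cells). Genes with mt-, Rpl, Rps and Gm names (20.4% of UMIs) were left out of library sizes and tests. Sums were tested with edgeR 4.0.16 (quasi-likelihood, TMM, filterByExpr, Benjamini-Hochberg, threshold 0.05; line as group, or mouse as block for classes of the same mice) in R 4.3.3, with DESeq2 1.42.0 as an alternative. Other alternatives were the C1qa, Gpnmb and cell minimums, no filter on low counts, all deposited cells, thinned cells and leaving out each mouse. Floors are 3 UMIs and cover counting error only. With 0 barcodes shared and replicate chi-square values per degree of freedom of 2.69 to 13.2, no library was a duplicate. Named list genes are at most 8 per comparison, largest change first, with an average log2 CPM of at least 3; genes most like a member are the 5 of highest r among those with a mean of at least 10 CPM. Promoters come from RefSeq (3 of 3 matched). Ly6a2, in the list of monocyte markers, had no match. Genes named without values complete a count. A list gene that met the rule for named genes is not reported here.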

Additional observations from a re-analysis of the deposited data

How the results depend on the processing

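Of 430 values under an alternative setting, 376 kept their direction, call or size, 32 moved, 14 lost a call, 1 gained one and 7 reversed. For Il7r in Gpnmb+ macrophages, E0771-Res1 minus parental (-153 CPM) was -84.0 CPM with a C1qa minimum of 5, -35.4 with 1 Gpnmb UMI and -24.8 with any C1qa, and E0771-Res2 minus parental (51.3 CPM) was 126 with 1 Gpnmb UMI and 150 with any C1qa; leaving out 1 mouse gave 1.95 (without E0771-Res2 replicate 2) to 88.7 CPM. In monocytes E0771-Res2 minus parental (97.1 CPM) was 7.87 when cells with 2 Gpnmb UMIs were moved out and 3.45 without any Gpnmb UMI. In T cells it reversed from 62.6 to -28.3 CPM without C1qa or Gpnmb UMIs. These last 3 selections (any C1qa, no Gpnmb, no C1qa or Gpnmb) were chosen after seeing the data, and in each the altered cells are the construction of the setting; otherwise the cause was not tested.

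List genes called between lines numbered 2 in Gpnmb+ macrophages (DESeq2 1, no filter on low counts 4, Gpnmb minimum of 4 1; without 1 mouse 1 to 3, with 1 without parental replicate 1 and without E0771-Res2 replicate 1), 1 in other macrophages (no filter 12, C1qa minimum of 5 2, Gpnmb minimum of 1 0; without 1 mouse 0 to 7, with 0 without parental replicate 3, E0771-Res1 replicate 2 or E0771-Res2 replicate 3 and 7 without E0771-Res1 replicate 3), 8 in monocytes (DESeq2 5, no filter 15; without 1 mouse 4 to 11, with 4 without either parental mouse and 5 without E0771-Res2 replicate 3) and 0 in T cells (no filter 2; without 1 mouse 0 to 1). Between Gpnmb+ and other macrophages they numbered 7 (DESeq2 4, Gpnmb minimum of 1 or of 4 4 each; without 1 mouse 3 to 7, with 3 without E0771-Res1 replicate 2, E0771-Res2 replicate 1 or E0771-Res2 replicate 3). The share of all genes called was not computed for these alternatives.

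For Crlf2 in Foxp3+ T cells (0.34), edgeR's call was lost with DESeq2 (0.34, adjusted p = 0.143), with no filter (0.27, adjusted p = 0.312) and with all deposited cells (0.31, adjusted p = 0.0774), and without 1 mouse the value was 0.31 to 0.37 (adjusted p = 0.0433 without E0771-Res1 replicate 2, and 0.0631 to 0.118 otherwise). Values near 0 changed sign when 1 mouse was left out, Il2rg in CD8+ T cells (-0.063 to 0.023) and Il7r by MHC class II (-0.14 to 0.032). Crlf2 by MHC class II passed between the macrophages highest and lowest in MHC class II, with the middle left out (0.25, edgeR adjusted p = 0.0424). The Il7r and Crlf2 calls in dendritic cells and in CD8+ T cells and the Il2rg call by MHC class II held under each alternative run.

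Mice of different lines with the same replicate number did not deviate together in every pair (14 correlations of -0.12 to 0.16, highest in monocytes of the resistant lines). Each mouse of the resistant lines was best matched by its own number in 6 of 6 cases in monocytes and 2 of 6 in other macrophages. The cases of the 2 lines were read from the same correlations and are not independent. The matched correlations in monocytes were low (0.074 to 0.097). The main tests did not use the numbers as pairs, and so take no account of any such match. With the replicate block, list genes called were 2 in Gpnmb+ macrophages, 2 in other macrophages, 11 in monocytes (8 without the block), 1 in T cells and 0 in NK cells. The share of all genes called with the block was not computed, so these counts say nothing particular to the lists. Cells were few in mature (8 to 51 per mouse) and other dendritic cells (9 to 44), NK cells (12 to 51) and parental Gpnmb+ macrophages (19 and 31), which limits the depth behind their values.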
